A study of Mus musculus with 2 samples.

Results

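Etv1, Etv4 and Etv5 encode the PEA3 group of ETS transcription factors, and their 3 rows were taken from the 42422 genes of the count table by Ensembl identifier. All 3 were among the 15252 genes that passed the filter on low counts. RNA was measured in germ cells sorted by Oct4-eGFP fluorescence, with dead cells excluded, from wild-type (WT) E12.5 mouse gonads (the Oct4-eGFP transgene on 129T2svJ, given as 129sv in the labels, crossed to Swiss). Each of the 40 libraries came from several gonads dissociated together, and 4 libraries made up each of 10 groups. XX and XY germ cells were taken before culture (0 h) or after 24 h or 72 h of organ culture with the mesonephros in the vehicle DMSO. XY gonads were also cultured for 24 h or 72 h with 500 nM BGJ398/Infigratinib, an inhibitor of FGF receptors (FGFRi), or with 500 nM PD0325901/Mirdametinib, an inhibitor of MEK1/2 (MEKi). The inhibitors reached the whole gonad, so somatic cells were treated together with germ cells.

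ETS factors bind DNA at a GGAA core through the winged helix-turn-helix domain that gives the family its name. Etv1, Etv4 and Etv5 are known as transcriptional outputs of receptor tyrosine kinases that act through RAS, RAF, MEK and ERK, and their transcripts are widely used as a readout of FGF signalling in the embryo. The repressor capicua (Cic) holds such genes off until ERK signalling relieves it, and the ubiquitin ligase of Cop1 and Det1 degrades the PEA3 proteins. In the postnatal testis, Etv5 is needed to keep spermatogonial stem cells, in which GDNF signals through the receptor Ret.

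Etv1 (ENSMUSG00000004151) lies on chromosome 12, 38828851 to 38920483, on the forward strand of GRCm39. Etv4 (ENSMUSG00000017724) lies on chromosome 11, 101660568 to 101676197, on the reverse strand. Etv5 (ENSMUSG00000013089) lies on chromosome 16, 22200052 to 22259662, on the reverse strand. All are protein-coding. No annotated gene overlapped Etv1, whereas the lncRNA Gm39392 overlapped Etv4 and the lncRNAs Gm61225 and Gm59753 overlapped Etv5, each on the opposite strand. The counting was set to use strand, and these lncRNAs had no row in the count table.

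Start-site windows (250 bases before to 50 bases after the start) were given by RefSeq on GRCm38.p6 for 2 of the 3 genes, with 2 starts each for Etv1 and Etv5. The windows were searched on both strands for 4 octamers bound by capicua (TGAATGAA, TGAATGGA, TGAATGAG and TGAATGGG). This choice was made after the sequences had been read, and other forms of the capicua motif were not searched for. The upstream Etv5 window held none and the downstream Etv5 window held 3. These windows are shown because they differ in this respect within a single gene. Letters run 5′ to 3′ on the strand of Etv5, and capitals mark the octamers, the last of them on the opposite strand.
Etv5 upstream start, chr16:22439521-22439820, reverse strand: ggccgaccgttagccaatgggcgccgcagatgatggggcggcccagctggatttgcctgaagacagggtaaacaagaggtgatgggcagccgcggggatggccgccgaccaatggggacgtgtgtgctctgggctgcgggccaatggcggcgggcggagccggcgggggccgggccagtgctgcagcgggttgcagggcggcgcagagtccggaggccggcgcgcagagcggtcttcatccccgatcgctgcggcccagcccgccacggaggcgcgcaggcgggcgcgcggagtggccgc
Etv5 downstream start, chr16:22438319-22438618, reverse strand: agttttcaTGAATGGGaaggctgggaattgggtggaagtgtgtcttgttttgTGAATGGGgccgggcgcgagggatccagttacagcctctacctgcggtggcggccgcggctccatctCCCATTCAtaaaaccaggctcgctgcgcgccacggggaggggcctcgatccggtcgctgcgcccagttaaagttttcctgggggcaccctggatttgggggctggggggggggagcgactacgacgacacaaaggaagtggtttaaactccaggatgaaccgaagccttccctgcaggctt
The 3 matches, all of them TGAATGGG, began at bases 9, 53 and 120 of the downstream window. Of all 32851 windows of this length, 4.60% held at least 1 of the 4 octamers and 0.0578% held 3 or more. Neither Etv1 window, chr12:38779832-38780131 and chr12:38783461-38783760, held one. The AP-1 motif TGACTCA, present in 5.20% of all windows, and the longer ETS motif CCGGAAGT, present in 3.89%, were in none of the 4 windows. The GGAA core was present in 96.0% of all windows, and occurred 5 and 1 times in the Etv1 windows and 0 and 6 times in the upstream and downstream Etv5 windows. These matches describe letters in the windows and are not measured binding sites.

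Values are given as CPM, counts scaled to a common library total with TMM factors, which adjusts for differences in composition. Counts came from transcript 3′ ends and were not divided by length, so CPM compare a gene between libraries and not one gene with another. A gene was called when limma found a fold change beyond 1.5 with an adjusted p (FDR) under 0.05 over all genes tested. The exact permutation test on single values had 70 regroupings of 4 against 4 libraries and a smallest possible p of 0.0286, which became 0.0355 after adjustment over the 51 tests made. Totals ran from 1178953 to 5199153 counts per library, and intervals cover the spread between libraries of pooled gonads. In these bulk samples, less RNA per cell and fewer cells that express a gene cannot be told apart. Pool 1 of the sequencing held both 0 h groups, both 24 h DMSO groups and 24 h MEKi, and pool 2 held 24 h FGFRi and all 72 h groups, so treatment or time cannot be told apart from pool in a comparison between pools.

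The germ cell markers Ddx4, Dazl, Pou5f1 and Dppa3 were detected in all groups, with summed levels from 1677 to 5339 CPM over the 40 libraries. Of 8 supporting cell markers the summed level was 7.98 to 95.4 CPM, and of 7 Leydig and interstitial markers it was 9.20 to 68.6 CPM, with Insl3 at 0 counts in every group. Pecam1, which germ cells at this stage also express, made up most of the 4 endothelial markers at 0 h and 24 h, and their summed level was 31.3 to 128 CPM at 0 h and 24 h and 5.16 to 28.3 CPM at 72 h. Blood markers, mainly the haemoglobins, summed to 13.9 to 486 CPM. Their part in the results below was not tested.

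**Figure D1:**
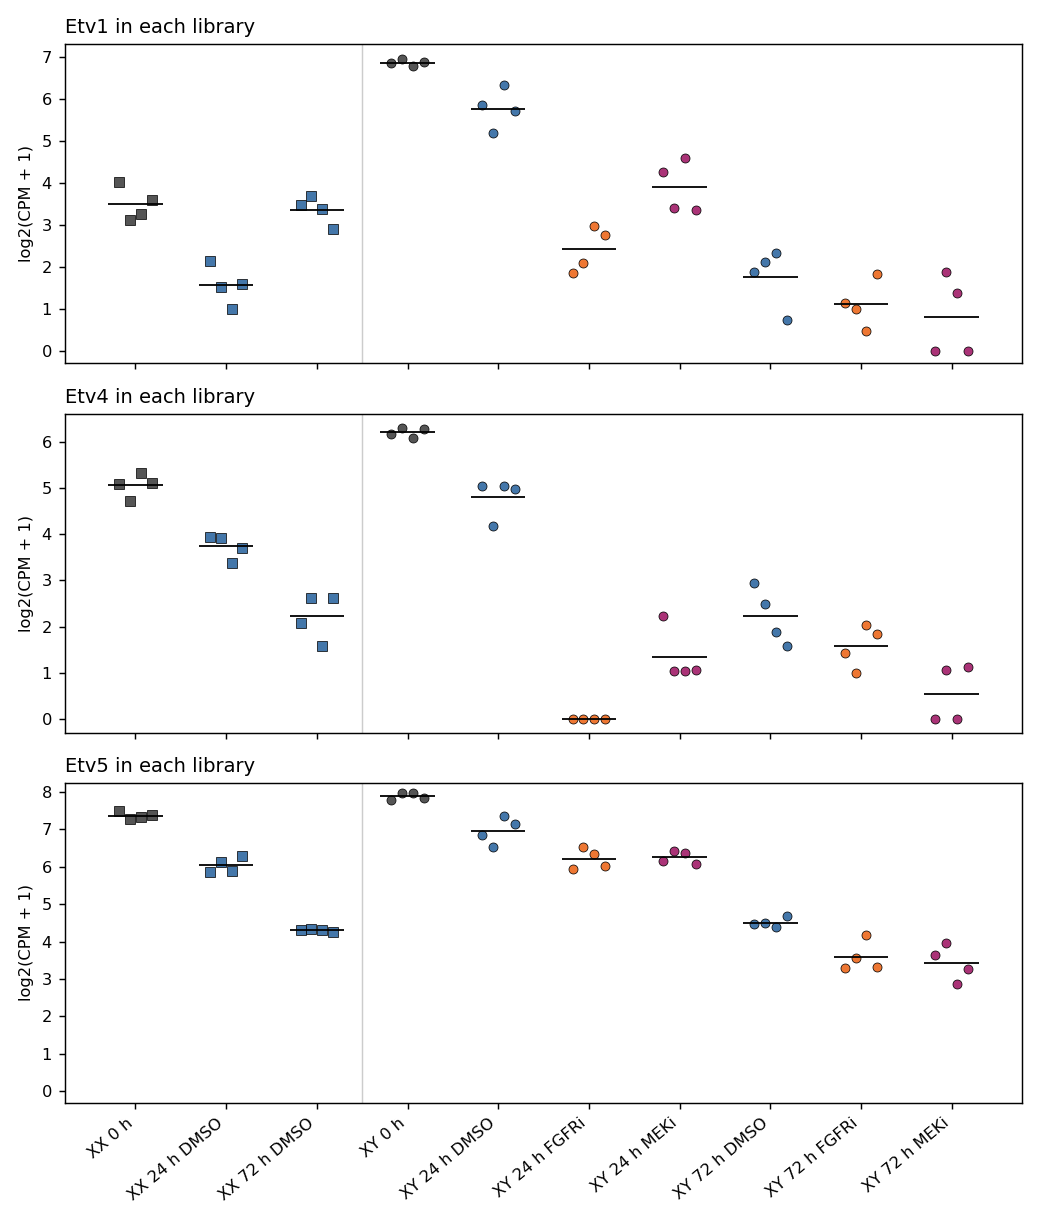
Level of Etv1, Etv4 and Etv5 in each library, as log2(CPM + 1), in the 10 groups. Squares are XX and circles XY libraries, grey is 0 h, blue DMSO, orange FGFRi and purple MEKi, and bars are means of the 4 plotted values. All 3 genes were highest in XY 0 h, and Etv4 was at 0 in every XY 24 h FGFRi library.

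Each of the 3 genes had its highest mean in XY germ cells before culture and lost most of that level by 72 h. Over the 10 groups ranked by mean, Etv1 ran from 117 CPM in XY 0 h through 56.2 CPM in XY 24 h DMSO and 15.1 CPM in XY 24 h MEKi to 10.7 CPM in XX 0 h. It was 9.47 CPM in XX 72 h DMSO, 4.64 CPM in XY 24 h FGFRi, 2.67 CPM in XY 72 h DMSO and 2.08 CPM in XX 24 h DMSO, and lowest in XY 72 h FGFRi (1.29 CPM) and XY 72 h MEKi (1.07 CPM). Only the steps after XY 0 h and after XY 24 h DMSO separated neighbouring groups without overlap, and the other 7 steps fell within overlapping ranges.

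Etv4 ranked differently, with XX 0 h (32.8 CPM) after XY 0 h (72.9 CPM) and ahead of XY 24 h DMSO (27.9 CPM) and XX 24 h DMSO (12.5 CPM). XY and XX germ cells were close after 72 h in DMSO (3.99 and 3.89 CPM). XY 72 h FGFRi (2.10 CPM), XY 24 h MEKi (1.73 CPM) and XY 72 h MEKi (0.562 CPM) followed, and XY 24 h FGFRi was last at 0. Of the 9 steps, 6 had overlapping ranges, among them XX 0 h against XY 24 h DMSO and every step below XY 72 h DMSO.

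Etv5 ran in the same broad order by time, from means of 236 (XY 0 h) and 164 CPM (XX 0 h) to 127 CPM in XY 24 h DMSO. XY 24 h MEKi (75.9 CPM), XY 24 h FGFRi (73.8 CPM) and XX 24 h DMSO (65.5 CPM) lay within each other's ranges. At 72 h it was 21.8 CPM in XY DMSO, 18.7 CPM in XX DMSO, 11.4 CPM in FGFRi and 10.2 CPM in MEKi. Of its 9 steps, 4 overlapped, the last of them between the inhibitor groups at 72 h.

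To ask how the sexes differed, XY and XX germ cells were compared at each time within a pool. Before culture, Etv1 was 10.9 times as high in XY as in XX germ cells, the widest separation of the 3 genes at this time. Its XX libraries were at 7.72, 8.53, 11.1 and 15.4 CPM and its XY libraries at 109.6, 115, 117 and 125 CPM, and no values overlapped. By limma the log2 fold change was 3.57 with an SE of 0.231 (FDR 2.52e-15).

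Etv4 was also called higher in XY germ cells at 0 h, by a log2 fold change of 1.16 (SE 0.145, FDR 0.00576). The XX libraries were at 25.5, 32.9, 33.7 and 39.2 CPM and the XY libraries at 66.8, 70.6, 76.4 and 77.6 CPM. Etv5 was 164 ± 11.3 CPM in XX and 236 ± 16.2 CPM in XY germ cells (SD, n = 4), with no overlap but a log2 fold change of 0.55 (95% interval 0.33 to 0.77) that was not called against 1.5-fold (FDR 1). The Etv4 call was lost without XX 0 h replicate 3 or XY 0 h replicate 3, at log2 fold changes of 1.05 and 1.12. Leydig and interstitial markers summed to 28.2 to 68.6 CPM in XY and 9.20 to 22.4 CPM in XX libraries at 0 h. Blood markers summed to 51.3 to 378 CPM in XY and 32.9 to 49.6 CPM in XX, and the part of either list was not tested. Of all genes tested at 0 h, 3.0% were called.

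After 24 h in DMSO, Etv1 remained higher in XY germ cells and Etv4 and Etv5 were not called. Etv1 was at 0.991, 1.89, 2.00 and 3.42 CPM in XX and at 35.4, 51.9, 57.5 and 79.8 CPM in XY germ cells, a log2 fold change of 4.59 (SE 0.495, FDR 6.45e-09). All XY libraries lay at least 10 times above the highest XX library. Supporting cell markers also separated these groups, at 20.6 to 95.4 CPM in XY and 7.98 to 16.2 CPM in XX, as did germ cell markers (3137 to 4387 and 2379 to 2942 CPM). Of the germ cell markers, mean Dppa3 (1995 and 718 CPM) and Pou5f1 were higher in XY. Mean Ddx4 (240 and 398 CPM) and Dazl (1451 and 1463 CPM) were lower. The part of these lists was not tested. Etv4 was 12.5 ± 2.30 CPM in XX and 27.9 ± 7.19 CPM in XY, a log2 fold change of 1.17 (95% interval 0.69 to 1.64, FDR 0.0764). Etv5 was 65.5 ± 9.81 and 127 ± 31.5 CPM, a log2 fold change of 0.95 (95% interval 0.67 to 1.23, FDR 0.0580). Neither gene had overlapping groups, and each gave an exact permutation p of 0.0286 (adjusted 0.0355). At 24 h, 9.99% of genes were called. Without XY 24 h DMSO replicate 3, the lowest of its group for all 3 genes, Etv4 and Etv5 passed the threshold at log2 fold changes of 1.27 and 1.05, and Etv5 also passed without XY 24 h DMSO replicate 2 (1.03) or XX 24 h DMSO replicate 9 (1.06).

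At 72 h the sex difference of Etv1 was the other way round. XX libraries were at 6.47, 9.37, 10.2 and 11.9 CPM and XY DMSO libraries at 0.664, 2.69, 3.34 and 3.99 CPM, a log2 fold change of -1.82 for XY over XX (SE 0.524, FDR 0.0286). The ranges did not overlap, at 66 counts over the XX group and 21 over the XY group. The XX 72 h libraries were also those with the higher supporting cell marker sums (42.3 to 74.9 CPM against 26.8 to 37.6 CPM in XY 72 h DMSO). Blood marker sums were the other way round (20.1 to 27.8 CPM in XX, 28.6 to 83.6 CPM in XY). So were endothelial (5.16 to 9.70 and 15.5 to 21.9 CPM) and germ cell sums (1760 to 2003 and 2152 to 2555 CPM). Of the germ cell markers, mean Dppa3 (96.2 and 871 CPM), Pou5f1 (8.34 and 61.9 CPM) and Ddx4 (380 and 530 CPM) were lower in XX. Mean Dazl was higher in XX (1414 and 897 CPM). The part of these lists in the Etv1 difference was not tested. The call was lost without XX 72 h DMSO replicate 4 or 11 or without XY 72 h DMSO replicate 6, at log2 fold changes of -1.68, -1.73 and -1.44. Etv4 did not separate the sexes (log2 fold change -0.02, 95% interval -1.01 to 0.97, FDR 1), nor was Etv5 called (0.21, 95% interval -0.30 to 0.72, FDR 1). At 72 h, 41.0% of all genes were called.

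The change in the XY minus XX difference from 24 h to 72 h, tested as an interaction chosen after the data were seen, was -6.42 for Etv1 on the log2 scale (SE 0.721, FDR 3.35e-09), with 26.1% of genes called. Etv4 (-1.18, FDR 0.327) and Etv5 (-0.74, FDR 0.569) were not called in it. From 0 h to 24 h none of the 3 was called (Etv1 1.02, Etv4 0.00 and Etv5 0.40, each FDR 1), against 0.452% of genes called.

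**Figure D2:**
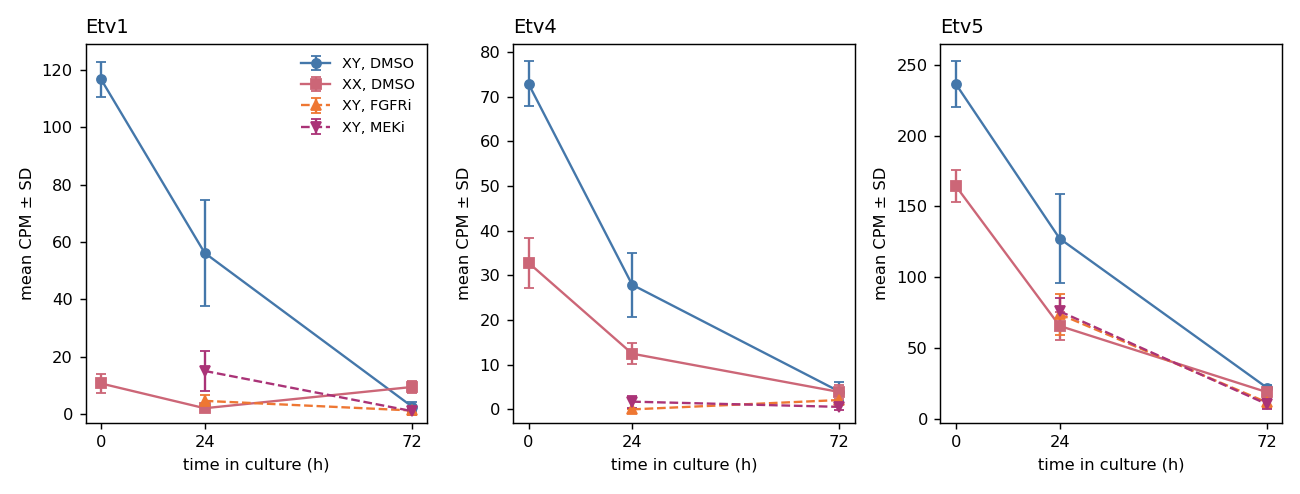
Mean CPM with SD (4 libraries per point) against time in culture for Etv1, Etv4 and Etv5, each on its own axis. Solid lines join XY (blue) and XX (red) germ cells at 0 h and in DMSO, and dashed lines join XY germ cells in FGFRi (orange) and MEKi (purple). Etv1 in XX germ cells was lower at 24 h than at 72 h, while the means of the other DMSO lines were lower at each later time.

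The comparisons over time asked how far the genes fell in culture without inhibitor. In XY germ cells after 24 h in DMSO, Etv1 stood at 48.1% and Etv4 at 38.3% of the 0 h mean, and both were called lower. The log2 fold changes were -1.10 for Etv1 (SE 0.148, FDR 0.0225) and -1.35 for Etv4 (SE 0.159, FDR 0.000557). Etv5 stood at 53.8% with a log2 fold change of -0.88 (95% interval -1.12 to -0.64, FDR 0.172). For each gene, every XY 0 h library lay above every XY 24 h DMSO library, and 2.94% of genes were called. Between these groups the Leydig and interstitial marker sum went from 28.2 to 68.6 CPM down to 13.8 to 24.5 CPM and the endothelial sum from 98.9 to 115 CPM down to 31.3 to 94.9 CPM, and their part was not tested. Etv1 was not called without XY 0 h replicate 3 (-1.05), XY 24 h DMSO replicate 3 (-0.98) or XY 24 h DMSO replicate 5 (-1.08), and Etv5 was called without XY 24 h DMSO replicate 4 (-1.02).

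In XX germ cells over the same 24 h, Etv4 and Etv5 were called lower and Etv1 was not. Etv5 went from 153, 159, 165 and 179.7 CPM to 57.3, 58.0, 69.0 and 77.8 CPM. Its log2 fold change was -1.28 with an SE of 0.134 (FDR 0.000249). Etv4 changed by -1.36 (SE 0.227, FDR 0.0252). Etv1 went from 10.7 ± 3.45 to 2.08 ± 1.01 CPM without overlap, a log2 fold change of -2.12 (95% interval -3.18 to -1.07, FDR 0.0668). The Etv4 call was lost on leaving out any of 6 of the 8 libraries, all but XX 0 h replicates 2 and 3, at -1.25 to -1.40. Of all genes, 3.23% were called.

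Between 24 h and 72 h in DMSO, which also crosses the pools, all 3 genes fell in XY germ cells. Etv1 changed by -4.36 (SE 0.452, FDR 7.11e-10), Etv4 by -2.80 (SE 0.359, FDR 8.63e-07) and Etv5 by -2.56 (SE 0.186, FDR 6.13e-13), with 27.3% of genes called. At 72 h they stood at 2.29%, 5.48% and 9.23% of their XY 0 h means. In XY libraries from 24 h to 72 h the Leydig and interstitial marker sum went from 13.8 to 24.5 CPM up to 32.6 to 60.0 CPM, the endothelial sum from 31.3 to 94.9 CPM down to 15.5 to 21.9 CPM and the germ cell sum from 3137 to 4387 CPM down to 2152 to 2555 CPM, and their part was not tested. In XX germ cells Etv5 (-1.82, SE 0.224, FDR 8.70e-06) and Etv4 (-1.61, SE 0.413, FDR 0.0375) were lower at 72 h, whereas Etv1 was higher (2.06, SE 0.561, FDR 0.0282), with 22.2% of genes called. XX Etv1 rose to 88.5% of its 0 h mean. From 24 h to 72 h in XX libraries, the supporting cell marker sum went from 7.98 to 16.2 CPM up to 42.3 to 74.9 CPM and the Leydig and interstitial sum from 9.45 to 16.4 CPM up to 44.9 to 67.3 CPM. The endothelial sum went from 60.5 to 109.8 CPM down to 5.16 to 9.70 CPM and the germ cell sum from 2379 to 2942 CPM down to 1760 to 2003 CPM, and the part of these lists in the XX changes was not tested. Each XX 72 h library lay above each XX 24 h library, at 66 and 22 counts per group, and the call was lost without XX 24 h DMSO replicate 5, 6 or 9 or XX 72 h DMSO replicate 4 or 11 (log2 fold changes 1.91 to 2.05). The Etv4 call in XX germ cells was lost without any of the 4 XX 72 h libraries or XX 24 h DMSO replicate 4 or 5 (-1.49 to -1.73).

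The inhibitor comparisons asked how far each gene depended on FGF receptors and on MEK1/2. After 24 h of FGFRi, Etv1 and Etv4 were called lower in XY germ cells and Etv5 was not. Etv4 had 62, 33, 93 and 112 counts in the DMSO libraries, at 17.2 to 32.1 CPM, and 0 counts in all 4 FGFRi libraries. A floor of 3 counts over the FGFRi group (0.499 CPM) makes Etv4 at least 56.0-fold lower, and limma gave FDR 1.90e-09. Etv1 was at 35.4, 51.9, 57.5 and 79.8 CPM in DMSO and at 2.60, 3.26, 5.80 and 6.89 CPM in FGFRi, which gives a log2 fold change of -3.51 (SE 0.410, FDR 2.34e-06). Both separated the groups completely.

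Etv5 was at 91.2, 114, 140.4 and 164 CPM in DMSO and at 59.9, 64.4, 79.8 and 91.2 CPM in FGFRi. The highest FGFRi library met the lowest DMSO library. Its log2 fold change of -0.81 (95% interval -1.09 to -0.52, FDR 1) was not called against 1.5-fold, and the exact permutation p was 0.0571 (adjusted 0.0694). Of all genes tested, 0.262% were called. FGFRi and DMSO at 24 h were in different pools, and blood markers summed to 57.0 to 74.7 CPM in FGFRi and 38.5 to 132 CPM in DMSO.

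After 24 h of MEKi, within pool 1, the same pair of genes was called lower. Etv4 was at 1.06, 1.06, 1.10 and 3.71 CPM (14 counts in all), a log2 fold change of -3.96 (SE 0.458, FDR 1.24e-06). Its MEKi libraries all lay below the lowest DMSO library, and the ratio of the means was 16.1, or 26.0 without XY 24 h MEKi replicate 1. Etv1 was at 9.31, 9.56, 18.1 and 23.3 CPM. Its log2 fold change was -1.92 with an SE of 0.242 (FDR 0.000689), and the ratio of the means was 3.73.

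Etv5 was at 66.2, 69.7, 82.0 and 85.5 CPM in MEKi, below every DMSO library. The log2 fold change of -0.79 (95% interval -1.06 to -0.52, FDR 1) was not called beyond 1.5-fold, while the exact permutation test of the single gene gave p = 0.0286 (adjusted 0.0355). Of all genes, 0.164% were called. Blood markers were higher in the MEKi libraries (180.4 to 486 CPM against 38.5 to 132 CPM in DMSO), and their part in these values was not tested. Without XY 24 h DMSO replicate 3 the changes were -2.04 for Etv1 and -4.07 for Etv4, still called, and -0.90 for Etv5.

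**Figure D3:**
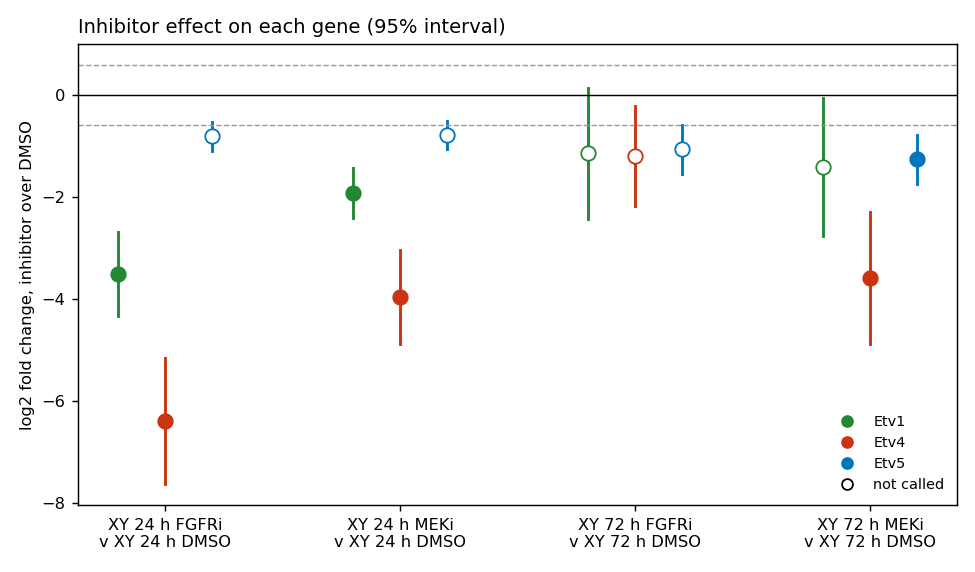
Log2 fold change of inhibitor over DMSO in XY germ cells, with its 95% interval from limma, for Etv1 (green), Etv4 (red) and Etv5 (blue). Filled points were called against a 1.5-fold change (dashed lines). The fitted Etv4 point for 24 h FGFRi is no bound, since that group was at 0. Etv1 and Etv4 are well below the dashed line at 24 h in both inhibitors, and Etv5 lies near it.

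At 72 h the DMSO levels were already low, and FGFRi gave no call in any of the 3 genes. Etv5 was at 20.0, 21.0, 21.7 and 24.6 CPM in DMSO and at 8.80, 9.05, 10.9 and 17.0 CPM in FGFRi, without overlap. Its log2 fold change was -1.07 (95% interval -1.54 to -0.59, FDR 1), with an exact permutation p of 0.0286 (adjusted 0.0355). Etv4 was 3.99 ± 2.13 CPM in DMSO and 2.10 ± 0.927 CPM in FGFRi (log2 fold change -1.20, 95% interval -2.17 to -0.22, FDR 1). Etv1 was 2.67 ± 1.44 and 1.29 ± 0.929 CPM (-1.14, 95% interval -2.42 to 0.14, FDR 1). Both overlapped between the groups, at 18 to 33 counts per group. Leydig and interstitial markers summed to 21.3 to 27.1 CPM in FGFRi and 32.6 to 60.0 CPM in DMSO, and their part was not tested. Only 1 gene, Abca1, 0.00656% of those tested, was called by limma in this comparison, while 89 had an unadjusted p under 0.05.

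In the 72 h MEKi comparison Etv4 and Etv5 were called lower and Etv1 was not. Etv4 was at 1.99, 2.66, 4.60 and 6.71 CPM in DMSO and at 0, 0, 1.07 and 1.18 CPM in MEKi, a log2 fold change of -3.58 (SE 0.646, FDR 0.000402). The groups did not overlap, at 33 and 9 counts, and without XY 72 h MEKi replicate 4 the change was -2.42 (FDR 0.0497). Etv5 was at 6.34, 8.62, 11.4 and 14.5 CPM in MEKi, below every DMSO library, a log2 fold change of -1.26 (SE 0.240, FDR 0.0385). That call was lost without XY 72 h DMSO replicate 2 (-1.28), 4 (-1.27) or 6 (-1.21) or without XY 72 h MEKi replicate 5 (-1.18) or 4 (-0.90, FDR 0.55). Etv1 was at 0, 0, 1.59 and 2.69 CPM in MEKi (log2 fold change -1.42, 95% interval -2.77 to -0.07, FDR 0.539), and was not called without any 1 of the libraries either, at -2.40 without XY 72 h MEKi replicate 3 or 4 and -0.78 without replicate 5. Of all genes, 9.12% were called.

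Each inhibitor comparison at a given time used the same DMSO libraries, so the FGFRi and MEKi values of a gene are not independent. Set directly against each other at 24 h, across pools, no member was called, although Etv1 was higher in MEKi than in FGFRi in every library (log2 difference 1.59, 95% interval 0.69 to 2.48, FDR 1). Etv4 in MEKi was at least 3.48-fold above the FGFRi floor (FDR 1), or 2.15-fold without XY 24 h MEKi replicate 1, and Etv5 differed by 0.02 (95% interval -0.28 to 0.32, FDR 1). Here 0.105% of genes were called. Blood markers summed to 180.4 to 486 CPM in MEKi and 57.0 to 74.7 CPM in FGFRi, and endothelial markers to 71.2 to 95.8 CPM and 37.3 to 65.2 CPM. Mean Pecam1 was higher in MEKi (85.0 and 48.6 CPM), while Cdh5 (0.538 and 0.754 CPM), Kdr and Tek were lower. The part of either list was not tested. At 72 h, within pool 2, Etv4 was lower in MEKi than in FGFRi (-2.39, SE 0.655, FDR 0.0346), but the ranges overlapped and the exact permutation p was 0.0857. That call was lost without XY 72 h FGFRi replicate 2 (-2.39) or 5 (-2.21) or XY 72 h MEKi replicate 3 (-2.52) or 4 (-1.23). Leydig and interstitial markers summed to 31.1 to 61.2 CPM in MEKi and 21.3 to 27.1 CPM in FGFRi at 72 h, and their part was not tested. Etv1 (-0.28, 95% interval -1.67 to 1.11) and Etv5 (-0.20, 95% interval -0.69 to 0.30) were not called (each FDR 1), against 12.7% of all genes.

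Within FGFRi, both times being in pool 2, Etv4 was the member that was higher at 72 h than at 24 h. It had 28 counts at 72 h, at least 4.20-fold above the floor for the 0 counts at 24 h (FDR 0.0202). Etv1 (-1.99, SE 0.611, FDR 0.0398) and Etv5 (-2.82, SE 0.204, FDR 1.34e-13) were lower at 72 h, with 33.5% of genes called. From 24 h to 72 h in FGFRi the endothelial sum went from 37.3 to 65.2 CPM down to 15.9 to 19.1 CPM. Mean Pecam1 fell (48.6 to 6.35 CPM), while Cdh5 (0.754 to 6.07 CPM), Kdr and Tek rose. The germ cell sum went from 4189 to 5339 CPM down to 1677 to 2443 CPM. Mean Dppa3 (2728 to 632 CPM), Dazl (1715 to 832 CPM) and Pou5f1 fell, while Ddx4 rose (219 to 446 CPM). The part of these lists was not tested. The Etv4 call was lost without XY 24 h FGFRi replicate 4 or 5 or XY 72 h FGFRi replicate 5 (FDR from 0.0578), and the Etv1 call without any of these or XY 72 h FGFRi replicate 2 or 4 (-1.76 to -1.98). Within MEKi, across pools, all were lower at 72 h, by -3.86 for Etv1 (FDR 5.40e-06), -2.42 for Etv4 (FDR 0.0389) and -3.04 for Etv5 (FDR 2.33e-14), with 16.4% of genes called. Between these groups the blood marker sum went from 180.4 to 486 CPM down to 13.9 to 36.7 CPM. The endothelial sum went from 71.2 to 95.8 CPM down to 9.93 to 28.3 CPM. Mean Pecam1 fell (85.0 to 14.7 CPM), while Cdh5 (0.538 to 1.81 CPM), Kdr and Tek rose. The germ cell sum went from 3788 to 4265 CPM down to 2056 to 3353 CPM. Mean Dppa3 (2114 to 851 CPM), Dazl (1644 to 1254 CPM) and Pou5f1 fell, while Ddx4 rose (218 to 391 CPM). The part of these lists was not tested. For Etv4 the MEKi ranges at the 2 times overlapped, and the exact permutation p was 0.257. The Etv4 call was lost without XY 24 h MEKi replicate 1 (-1.93) or XY 72 h MEKi replicate 4 (-1.26). Etv1 was still called without XY 72 h MEKi replicate 3, 4 or 5 (-4.86 to -3.22).

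The change of the FGFRi effect from 24 h to 72 h, which also carries the difference between pools, was called for Etv4, at 5.20 on the log2 scale (SE 0.785, FDR 0.00201), when 0.0328% of all genes were called. This fitted value rests on the group at 0 and is no bound. Etv1 (2.37, 95% interval 0.85 to 3.89) and Etv5 (-0.26, 95% interval -0.82 to 0.29) were not called (each FDR 1). The corresponding MEKi interaction, in which a constant shift between pools cancels, was not called for Etv1 (0.50), Etv4 (0.38) or Etv5 (-0.48), each FDR 1, with 1.89% of genes called. With each library left out it was still not called for any of them, and the Etv4 value ran from 0.13 to 1.54 and the Etv1 value from -0.49 to 1.14.

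MEKi-treated XY germ cells were also compared with untreated references in the same pool. After 24 h of MEKi, Etv1 stood at 12.9%, Etv4 at 2.38% and Etv5 at 32.1% of XY 0 h, and all were called lower (log2 fold changes -3.02, -5.31 and -1.67, FDR 1.42e-11, 1.42e-11 and 5.13e-09), with 3.55% of genes called. In 24 h MEKi the endothelial sum was 71.2 to 95.8 CPM, against 98.9 to 115 CPM in XY 0 h. The germ cell sum was 3788 to 4265 CPM, against 2537 to 3162 CPM. Mean Dazl, Pou5f1 and Dppa3 were higher in 24 h MEKi, while Ddx4 was 218 CPM, against 225 CPM. The part of these lists was not tested. At 72 h, XY MEKi was below XX DMSO for Etv1 (-3.24, SE 0.588, FDR 0.000140) and Etv4 (-3.60, SE 0.660, FDR 0.000120). Without XY 72 h MEKi replicate 3, 4 or 5, Etv1 changed by -4.25 to -2.60, and without replicate 4 Etv4 changed by -2.43, all still called. Etv5 was not called (-1.06, FDR 0.113) except without XY 72 h MEKi replicate 3 (-1.27), with 30.0% of genes called. Here the endothelial sum was 9.93 to 28.3 CPM in MEKi and 5.16 to 9.70 CPM in XX. The germ cell sum was 2056 to 3353 and 1760 to 2003 CPM. Mean Dppa3 (851 and 96.2 CPM), Pou5f1 and Ddx4 were higher in MEKi, while Dazl was lower (1254 and 1414 CPM). The part of these lists was not tested.

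To compare the size of the response between members, the ratio of their counts inside each library was used, which needs no scaling factor. In XY 24 h DMSO the log2 ratio of Etv4 to Etv5 counts (0.5 added to each) was -2.19 ± 0.260 (SD, n = 4). It was -7.75 ± 0.439 in FGFRi and -5.43 ± 0.875 in MEKi. The ratio of Etv1 to Etv5 was -1.20 ± 0.226 in DMSO, -3.96 ± 0.611 in FGFRi and -2.41 ± 0.647 in MEKi, and that of Etv1 to Etv4 was 0.99 ± 0.243, 3.79 ± 0.934 and 3.02 ± 0.815. None of these 6 differences from DMSO had overlapping groups. Each gave an exact permutation p of 0.0286, the smallest possible, and 0.0571 after adjustment over the 12 ratio tests, which did not pass 0.05. With Etv4 at 0 in FGFRi, its ratios there depend on the added 0.5. At 72 h all 6 ratios overlapped between inhibitor and DMSO, with adjusted p from 0.147 to 0.914.

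**Figure D4:**
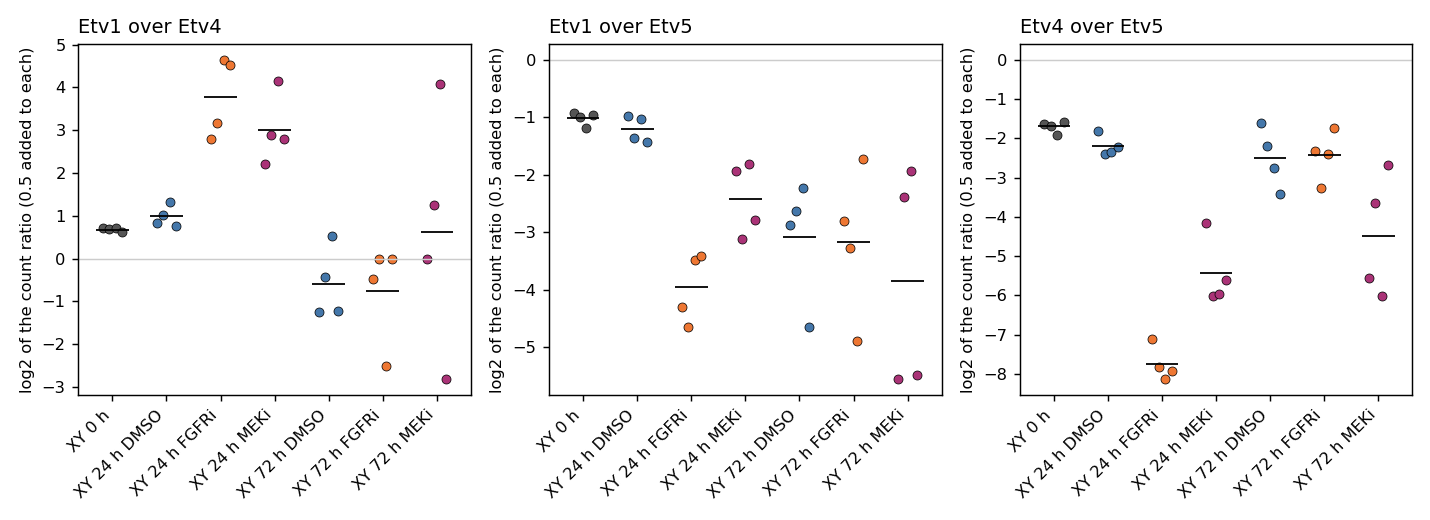
Log2 ratio of the counts of 2 members within each XY library (0.5 added to each count), by group. Points are libraries, bars are means of 4, and colours are as for the levels in each library. Etv4 over Etv5 was lower at 24 h in FGFRi and MEKi than in any 24 h DMSO library.

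Among the wider ETS family, 14 of 23 other genes passed the filter. FGFRi at 24 h called 1 of the 14 higher and none lower, when 0.262% of all genes were called. This was Elf3, an epithelial ETS factor, at 3.96 ± 1.15 CPM in DMSO and 22.8 ± 5.85 CPM in FGFRi (log2 fold change 2.33, SE 0.414, FDR 0.0255). The median log2 change of the 14 was -0.06, beside -0.03 over all genes. MEKi at 24 h called none by limma, DESeq2 or edgeR's glmTreat and 1 by edgeR's test against no change (5.59% of all genes), with 1 gene at an unadjusted p under 0.05 by limma (2.31% of all genes). FGFRi at 72 h called none by any of these, with 0 such genes. MEKi at 72 h called Erg (1.18, FDR 0.0287) and Etv3 (1.74, FDR 0.00174) higher, 2 of the 14 beside 9.12% of all genes, with a median of 0.57 over the 14 and 0.01 over all genes. With limma none of the other ETS genes was called lower with an inhibitor.

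Between the sexes no other ETS gene was called at 0 h by limma or DESeq2, 1 was called by glmTreat (4.17% of all genes) and 3 by edgeR's test against no change (19.1% of all genes), and 1 had an unadjusted p under 0.05 by limma (8.16% of all genes). At 24 h, Erg, Ets2, Etv6 and Spic were called higher in XY germ cells, with log2 fold changes from 1.20 (Etv6) to 4.53 (Spic, which was at 0.374 CPM in XX). These were 4 of the 14, beside 9.99% of all genes called. At 72 h, Elf1, Elf3, Erg, Ets1, Etv6 and Spic were higher in XY, from 1.39 (Elf1) to 3.21 (Erg), while Etv3 (-1.58) and Gabpa (-1.36) were lower, 8 of the 14 in all beside 41.0% of all genes.

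Of 18 ERK targets and feedback genes, 15 were tested. FGFRi at 24 h called 2 of them, the ERK phosphatase genes Dusp4 and Dusp6, lower, beside 0.262% of all genes. Dusp4 went from 58.9 ± 15.2 to 17.3 ± 3.68 CPM (log2 fold change -1.85, SE 0.253, FDR 0.00293), and Dusp6 from 27.0 ± 4.54 to 7.92 ± 5.18 CPM (-1.93, SE 0.342, FDR 0.0497). The sprouty gene Spry4, a feedback inhibitor of receptor signalling, was at 6.17 CPM in DMSO and 0.562 CPM in FGFRi (-3.25, FDR 0.0507) and was not called. The list's median was -0.51, and its highest value was 0.59 (Egr1, FDR 1). MEKi at 24 h called none of the 15 by limma, DESeq2 or glmTreat and 6 by edgeR's test against no change (5.59% of all genes), and 5 had an unadjusted p under 0.05 by limma (2.31% of all genes). The list's median there was -0.59, with -0.94 for Dusp4 (FDR 1), -1.22 for Dusp6 (FDR 0.890) and -2.37 for Spry4 (FDR 0.455). In the other direction were the immediate early genes Egr1, at 30.9 CPM in DMSO and 67.6 CPM in MEKi (1.33, FDR 0.273), Ier2 (0.71, FDR 1) and Fos (0.46, FDR 1), none of them called. FGFRi at 72 h called none by any of these tools, with 0 genes at an unadjusted p under 0.05 by limma, and MEKi at 72 h called the cell cycle gene Ccnd1 (1.49, FDR 0.00878) and Ier2 (1.70, FDR 0.000827) higher, beside 9.12% of all genes.

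In the sex comparison at 0 h, Spry2 was called higher in XY (1.27, FDR 0.0232), and Ccnd1 (-2.23) and Dusp5 (-1.36) lower, 3 of the 15 beside 3.0% of all genes. At 24 h Dusp4 (1.46), Dusp6 (1.81), Il17rd (1.16) and Spry2 (1.40) were higher in XY, and Ccnd1 (-3.25) and Dusp5 (-1.23) lower, 6 of the 15 beside 9.99% of all genes. At 72 h Il17rd was higher (2.55), and Ccnd1 (-1.59), Ier2 (-1.61) and Spred1 (-1.26) were lower, 4 of the 15 beside 41.0% of all genes.

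All 5 regulators of the PEA3 group were tested, and none was called by limma, DESeq2 or glmTreat in an inhibitor comparison. With limma, 1 had an unadjusted p under 0.05, in 72 h MEKi, when 16.5% of all genes did, and edgeR's test against no change called 2 there, when it called 41.0% of all genes. Between the sexes, Atxn1, a partner of capicua, was lower in XY at 24 h (-2.30, FDR 0.0145) and higher at 72 h (2.33, FDR 0.000491), when Cic was also higher in XY (0.93, FDR 0.0189). These were 1 and 2 of the 5, beside 9.99% and 41.0% of all genes.

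Of 21 receptors and kinase chain genes 20 were tested, and Ret, the GDNF receptor, was the gene called, lower, by each inhibitor at 24 h, 1 of the 20 beside 0.262% of all genes in FGFRi and 0.164% in MEKi. It was 30.8 ± 4.63 CPM in DMSO, 1.37 ± 1.58 CPM in FGFRi (log2 fold change -4.98, SE 0.618, FDR 2.34e-06) and 2.10 ± 1.52 CPM in MEKi (-4.03, SE 0.492, FDR 3.83e-06). No receptor or kinase of the list was called with FGFRi at 72 h by limma, DESeq2 or edgeR, and 1 had an unadjusted p under 0.05 by limma (0.584% of all genes). MEKi at 72 h called Ret (-1.78, FDR 0.000706) and the ERK1 gene Mapk3 (-1.31, FDR 2.46e-05) lower, and Fgfr2 (2.00, FDR 0.0213) and the MEK1 gene Map2k1 (1.19, FDR 0.0379) higher, 4 of the 20 beside 9.12% of all genes. In XY over XX germ cells none was called at 0 h by limma or DESeq2, 1 by glmTreat and 3 by edgeR's test against no change, and 2 had an unadjusted p under 0.05 by limma, beside 4.17%, 19.1% and 8.16% of all genes. At 24 h Ret was higher (2.68) and Fgfr3 lower (-1.61), and at 72 h Gfra1, Mapk3, Nras and Ret were among those higher (1.37 to 3.21) and Fgf9 among those lower (-2.73), when 9.99% and 41.0% of all genes were called.

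Of 9 genes known downstream of GDNF or Etv5 in spermatogonial stem cells, 6 were tested, and Ret, which is also in this list, was the gene called at 24 h with either inhibitor (0.262% and 0.164% of all genes). FGFRi at 72 h called none by limma, DESeq2 or edgeR, with 0 genes at an unadjusted p under 0.05 by limma. At 72 h of MEKi, Id4 (-1.15, FDR 0.00243) and Ret were called lower and Pou3f1 higher (1.86, FDR 0.000155), 3 of the 6 beside 9.12% of all genes. In the sex comparisons Lhx1 was higher in XY at 0 h (1.36) and 24 h (1.98), Id4 was lower at 0 h (-1.54) and higher at 72 h (1.16), and Ret was higher at 24 h and 72 h. Bcl6b was at 10.5 CPM in XY 72 h DMSO and at 0 counts in XX 72 h DMSO, and was called (FDR 2.21e-07). In all 2, 2 and 3 of the 6 were called at 0 h, 24 h and 72 h, beside 3.0%, 9.99% and 41.0% of all genes.

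**Figure D5:**
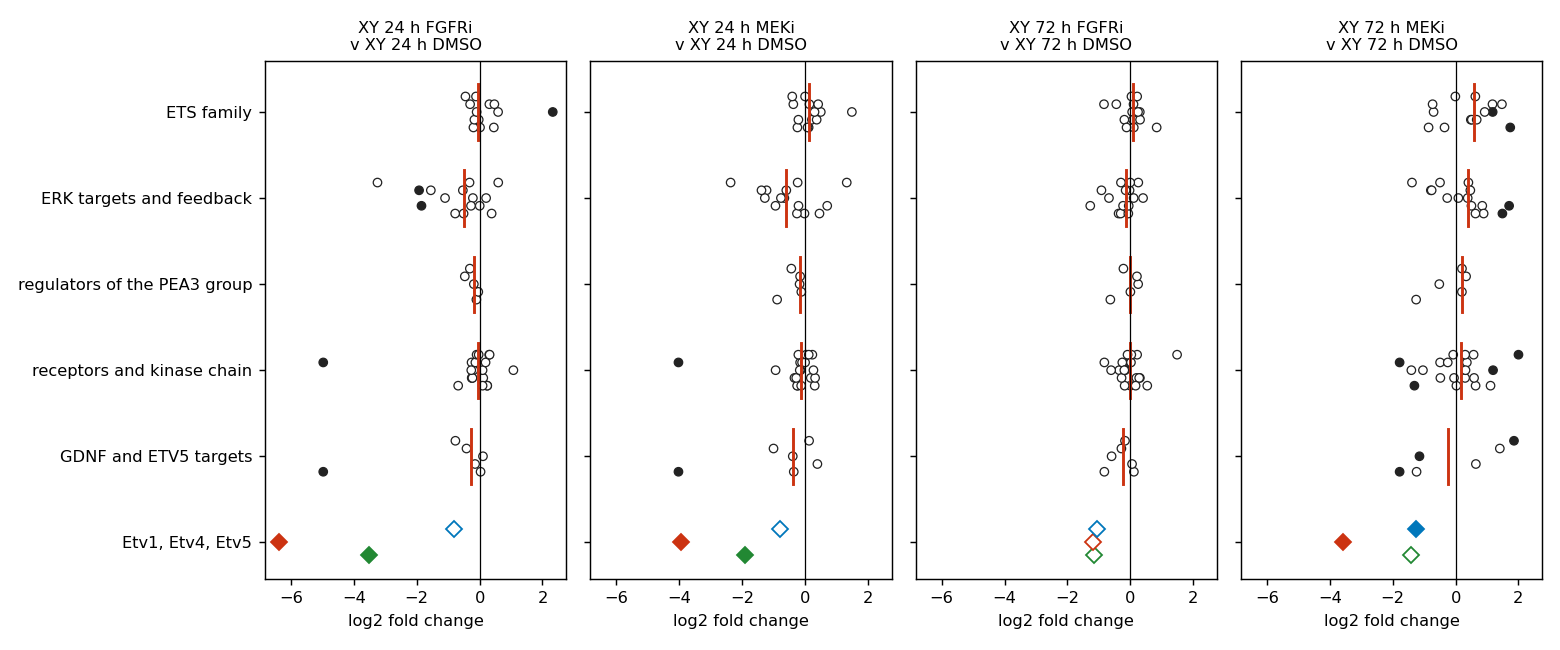
Log2 fold change of inhibitor over DMSO for every tested gene of the 5 lists (circles) and for Etv1 (green), Etv4 (red) and Etv5 (blue diamonds at the bottom). Filled symbols were called against a 1.5-fold change, and red bars mark list medians. At 24 h, Ret, which appears in both of the lists that hold it, is the listed gene nearest to Etv4.

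Genes whose pattern was most like that of a member were found by Pearson's r over the 10 group means of log2 CPM, among 12314 genes with a mean of at least 5 CPM. For Etv1 they were Exoc3l (r = 0.96), Ddx27 (0.91), Gm53012, Sf3a2 and Nup50 (each 0.90). Exoc3l was at 28.6 CPM in XY 0 h, 4.02 CPM in XX 0 h, 16.2 CPM in XY 24 h DMSO, 4.50 CPM in XY 24 h FGFRi and 5.26 CPM in XY 24 h MEKi. For Etv4 they were ENSMUSG00000116351, which had no match in the annotation's symbols, (0.96), Wapl (0.92), Msantd2, Plrg1 and Ermp1 (each 0.90). For Etv5 they were Cops7a, Fubp1, Gm11878, 4921524J17Rik and Eif2s3x, with r from 0.97 to 0.98. Over the same group means the members correlated at 0.70 (Etv1 with Etv4), 0.79 (Etv1 with Etv5) and 0.70 (Etv4 with Etv5). These are descriptions over 10 points that share their libraries and times.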

How the data were processed

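Germ cells were profiled by 3′ RNA-seq with molecular identifiers (UMIs) in 40 libraries sequenced in 2 pools. The deposited values are raw UMI counts per gene, which the authors made with scPipe for demultiplexing and Rsubread for alignment to GRCm39, with exon assignment on the stated strand and collapse of UMIs. Their annotation release is not given in the sources used here. Symbols were matched by Ensembl identifier to GENCODE M39 for 40391 of 42422 genes, and unmatched genes held 1.05% of the counts. Library totals were 1178953 to 5199153, and every column of sample values was used.

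After filterByExpr of edgeR 4.0.16, with a minimum count of 10 and a total of 15, 15252 genes remained and were scaled by TMM. Limma 3.58.1 in R 4.3.3 was fitted to all 40 libraries with a mean for each group, by voom with sample quality weights, and tested against a fold change of 1.5 (treat, Benjamini-Hochberg FDR of 0.05). Somatic libraries, which the authors fitted together with these, were not analysed here. Single genes and count ratios were also tested by two-sided exact permutation over libraries. The floor for a group at 0 is 3 counts over the group and covers counting error only. Alternative tests were edgeR's quasi-likelihood tests, DESeq2 1.42.0 and limma's eBayes. The eBayes test was against no change, and a call also needed an observed fold over 1.5. Other alternatives were other scalings, no filter, no weights, fewer groups, a replicate block and each library left out in turn. Counts with a shared sample index were also taken out of pool 1 libraries. The scripts were tested on simulated counts.

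Named genes were the members, every called gene of 5 fixed lists in the inhibitor and sex comparisons, and the 5 genes most like each member. Some called genes of the lists are not reported here. Spry4 and Exoc3l values were picked out after they were seen. The members and lists were chosen with earlier results of these data known, and the promoter motifs after the sequences were read. The labels describe the libraries of a group as separate samples of pooled gonads.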

Additional observations from a re-analysis of the deposited data

Results flagged for a closer look

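Among the 30 sets of 4 libraries (3 genes in 10 groups), 2 held a library far from the other three by Dixon's ratio, past the 95% critical value for sets of 4, which chance passes in about 1 set in 20. Etv4 in XY 24 h DMSO replicate 3 was at 17.2 CPM (ratio 0.876), below the nearest library at 30.3 CPM. Etv4 in XY 24 h MEKi replicate 1 was at 3.71 CPM (ratio 0.986), above the nearest at 1.10 CPM, with 8 counts against 2 in each of the others.

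For Etv4 the change of the FGFRi effect from 24 h to 72 h was 5.20 on the log2 scale (limma FDR 0.00201), a difference between times that also holds the difference between pools. The XY minus XX difference of Etv1 at 72 h less that at 24 h was -6.42 on the log2 scale (limma FDR 3.35e-09). The causes were not tested.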

How the results depend on the processing

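The calls of Etv1 and Etv4 in both 24 h inhibitor comparisons, of Etv1 between the sexes at 0 h and 24 h, and of Etv4 in 72 h MEKi against DMSO held in every alternative that gave a value and with each library left out. With only the groups compared, Etv4 did not pass the filter on low counts in the last of these and has no value. Of 681 values of a member under another setting, 604 kept direction and side of the threshold. For the others the cause was not tested, except that a test against no change asks for less than one against 1.5-fold. Low counts limit Etv1 and Etv4 at 72 h, where groups held 9 to 66 counts.

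Between MEKi and FGFRi at 72 h, Etv1 reversed to 0.25 (glmTreat and edgeR's test against no change) and 0.16 (DESeq2), and Etv4 lost its call at -1.62 (glmTreat), -1.77 (DESeq2), -1.96 (no filter) and -2.15 (no weights). At 24 h Etv5 reversed to -0.0065 (upper quartile) and -0.012 (only the groups compared). XY over XX at 72 h, Etv4 reversed to 0.11 (both edgeR tests and upper quartile), 0.10 (DESeq2), 0.088 (no scaling) and 0.051 (no weights). The 0 h to 24 h change of the sex difference of Etv4 reversed to -0.018 (no scaling), -0.0042 (upper quartile), -0.0071 (no filter) and -0.038 (no weights), and the MEKi interaction of Etv1 to -0.37 (no filter).

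Calls were lost for Etv5 in 72 h MEKi against DMSO (-1.14 with DESeq2, -1.16 without scaling, -1.11 without filter, -1.15 without weights), Etv4 between the sexes at 0 h (1.13 with DESeq2, 1.15 without filter), and Etv1 in XY 24 h DMSO against 0 h (-1.05 with glmTreat, -1.06 with DESeq2, -1.07 without filter). They were also lost for Etv4 in XX 24 h DMSO against 0 h (-1.36 without filter), Etv1 in FGFRi from 24 h to 72 h (-1.78 without scaling, -1.83 without filter, -2.01 without weights) and Etv4 in MEKi from 24 h to 72 h (-1.53 with glmTreat, -1.57 with DESeq2, -2.19 without scaling, -1.75 without filter, -2.04 without weights).

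Calls were gained between the sexes at 24 h for Etv4 (1.16 with both edgeR tests, 1.17 with limma's eBayes) and Etv5 (0.97 with both edgeR tests, 0.95 with eBayes, 0.96 without weights), and for Etv1 in XX 24 h DMSO against 0 h (-2.20 with both edgeR tests, -2.12 with eBayes, -2.26 with DESeq2, -2.11 with only the groups compared). Against no change, edgeR and eBayes also called Etv5 in 24 h FGFRi (-0.80 and -0.81), 24 h MEKi (-0.76 and -0.79), 72 h FGFRi (-0.97 and -1.07), XY 24 h DMSO against 0 h (-0.88 in both), 72 h MEKi against XX (-0.86 and -1.06) and the sex difference from 24 h to 72 h (-0.75 and -0.74). Both tests called Etv1 (1.61 and 1.59) and Etv4 (5.19 and 2.43) between MEKi and FGFRi at 24 h. EdgeR's test against no change, which had no fold cut-off, called Etv5 between the sexes at 0 h (0.53).

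The replicate numbers did not pair the libraries: 4 of 29 same-numbered pairs had deviations correlated above 0.1 (range -0.237 to 0.246). With the replicate block, calls were lost for Etv4 between MEKi and FGFRi at 72 h (-2.32), between the sexes at 0 h (1.28), in XY (-1.48) and XX (-1.33) 24 h DMSO against 0 h, in XX 72 h against 24 h (-1.37) and in MEKi 72 h against 24 h (-1.98), and for Etv1 between the sexes at 72 h (-1.72), in XY 24 h DMSO against 0 h (-1.27) and in XX 72 h against 24 h (1.99). The change of the sex difference of Etv4 to 24 h reversed to -0.14, and no other call of a member changed with the block.

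With each library left out, values ranged for Etv1 from 1.91 to 2.30 (XX 72 h against 24 h), -1.25 to -0.98 (XY 24 h DMSO against 0 h), -2.04 to -1.44 (sexes at 72 h), -2.16 to -1.76 (FGFRi 72 h against 24 h), -1.27 to 0.35 (MEKi against FGFRi at 72 h) and -0.49 to 1.14 (MEKi interaction). For Etv4 they ranged from -1.47 to -1.25 (XX 24 h against 0 h), -1.73 to -1.49 (XX 72 h against 24 h), 1.05 to 1.27 (sexes at 0 h), 1.09 to 1.27 (sexes at 24 h), -0.33 to 0.21 (sexes at 72 h), 2.21 to 2.68 (FGFRi 72 h against 24 h), -2.67 to -1.26 (MEKi 72 h against 24 h), -2.67 to -1.23 (MEKi against FGFRi at 72 h) and -0.10 to 0.11 (sex difference from 0 h to 24 h). For Etv5 they ranged from 0.81 to 1.06 (sexes at 24 h), -1.02 to -0.77 (XY 24 h DMSO against 0 h), -0.0603 to 0.13 and -0.38 to 0.16 (MEKi against FGFRi at 24 h and 72 h), -1.27 to -0.69 (72 h MEKi against XX) and -1.45 to -0.90 (72 h MEKi against DMSO).

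Counts of genes called moved most with the test against no change: from 40 to 29 (DESeq2) and 855 (edgeR) in 24 h FGFRi, from 25 to 18 (replicate block) and 853 in 24 h MEKi, from 1391 to 848 (replicate block) and 6252 in 72 h MEKi, and from 1 to 0 (replicate block) and 86 (eBayes) in 72 h FGFRi. Between the sexes they ran from 322 to 2912 around 457 at 0 h, from 1197 to 6195 around 1524 at 24 h and from 3888 to 10303 around 6250 at 72 h. From pool 1 libraries, a 3.25% share of the counts of the pool 2 library with the same sample index was taken out (16 pairs). This changed no call of a member. Nothing was taken out of pool 2 libraries, so carry-over into 24 h FGFRi and the 72 h groups was not examined.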
